A study of Homo sapiens with 18 samples.

Results

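The genes described here are the zinc finger genes of chromosome 19, that is, genes whose symbol is ZNF followed only by digits and whose first annotated exon lies on that chromosome. There were 241 such members among 60603 genes in the count tables, and 236 ZNF genes lay on other chromosomes. The members run from chr19:2819874 to chr19:58481230 (hg38), with 131 on the plus and 110 on the minus strand. Poly(A) RNA was sequenced from MDA-MB-231, a basal-like, triple-negative human breast adenocarcinoma line, in 9 conditions with 2 libraries each. In the transient system, the groups were untreated control cells, cells treated for 48 h with 0.6 µM doxorubicin, and cells that the labels describe as carrying transfected Flag-ZMYND8 under the same treatment. In the inducible system, lentiviral lines in which doxycycline switches on either GFP or Flag-ZMYND8 were sampled untreated, at 6 h and at 48 h of doxorubicin at 0.6 µM, with 250 ng/mL doxycycline in all 6 conditions, controls included. GFP and ZMYND8 cells are 1 stable line each, so a difference between the lines and an effect of ZMYND8 cannot be told apart. The submitters describe the 2 libraries as biological replicates and do not say more of their origin, so p-values measure the spread between these libraries.

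Most zinc finger proteins encoded on chromosome 19 bind DNA through tandem fingers and many carry a KRAB domain, which recruits the scaffold protein TRIM28. TRIM28 in turn brings in the histone methyltransferase SETDB1, HP1 proteins and the NuRD complex, and the targets, often transposable elements and other zinc finger genes, are kept in silent chromatin. The genes arose by repeated tandem duplication and lie side by side in clusters. ZMYND8 is a chromatin reader that binds modified histones and takes part in repressor complexes, and doxorubicin is an anthracycline that traps topoisomerase II on DNA. The study asked how ZMYND8 and doxorubicin, alone and together, change expression in these cells.

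The promoters of 5 members that the results below turn on are shown first, from 250 bases before to 50 bases after the RefSeq start site, 5′ to 3′ on the strand of the gene, with build GRCh38.p14. ZNF442 (chr19:12365634-12365933) and ZNF878 (chr19:12052912-12053211) were the largest rises after 48 h of doxorubicin in GFP cells among members with an average log2 CPM of at least 0, ZNF792 (chr19:34964180-34964479) and ZNF581 (chr19:55643399-55643698) the largest falls, and ZNF146 (chr19:36214856-36215155) the member with the highest level per kb of exon. Capitals mark matches, on either strand, to CCAAT (the box bound by NF-Y), TATAAA (the TATA box), GGGCGG (the GC box bound by Sp1), and TTTGGCGC and TTTCCCGC (E2F-type sites).
ZNF442: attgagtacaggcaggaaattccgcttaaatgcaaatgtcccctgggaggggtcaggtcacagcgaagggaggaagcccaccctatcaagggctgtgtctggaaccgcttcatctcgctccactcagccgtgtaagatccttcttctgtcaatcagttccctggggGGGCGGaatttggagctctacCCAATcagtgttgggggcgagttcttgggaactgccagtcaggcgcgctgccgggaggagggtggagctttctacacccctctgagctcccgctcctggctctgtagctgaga
ZNF878: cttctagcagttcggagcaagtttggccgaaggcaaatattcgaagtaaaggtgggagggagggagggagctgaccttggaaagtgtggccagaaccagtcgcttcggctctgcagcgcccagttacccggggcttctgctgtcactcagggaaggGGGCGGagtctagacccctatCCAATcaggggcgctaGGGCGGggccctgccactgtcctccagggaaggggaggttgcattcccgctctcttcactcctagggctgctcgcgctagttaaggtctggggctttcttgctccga
ZNF792: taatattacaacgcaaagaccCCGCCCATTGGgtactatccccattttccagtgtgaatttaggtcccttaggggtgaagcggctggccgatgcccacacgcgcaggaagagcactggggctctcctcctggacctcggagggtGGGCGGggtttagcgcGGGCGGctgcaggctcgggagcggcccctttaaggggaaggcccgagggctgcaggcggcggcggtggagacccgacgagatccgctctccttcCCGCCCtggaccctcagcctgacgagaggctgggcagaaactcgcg
ZNF581: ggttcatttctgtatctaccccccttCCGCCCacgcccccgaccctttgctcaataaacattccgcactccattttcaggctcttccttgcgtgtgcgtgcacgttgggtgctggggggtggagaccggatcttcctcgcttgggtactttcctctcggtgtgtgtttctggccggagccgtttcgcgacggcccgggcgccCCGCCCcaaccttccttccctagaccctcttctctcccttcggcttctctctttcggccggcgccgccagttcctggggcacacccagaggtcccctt
ZNF146: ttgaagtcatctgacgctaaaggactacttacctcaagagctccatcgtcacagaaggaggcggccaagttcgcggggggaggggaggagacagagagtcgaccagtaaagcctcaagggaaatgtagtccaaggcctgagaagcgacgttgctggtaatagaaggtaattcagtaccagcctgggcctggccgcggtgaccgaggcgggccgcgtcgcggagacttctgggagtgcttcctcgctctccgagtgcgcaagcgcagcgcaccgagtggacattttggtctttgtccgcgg
ZNF146 had no match to these letters in the window. The RefSeq start site of ZNF581 lies 8190 bases inside the gene as counted, so that window is not the start of the counted gene, while those of the other 4 lie within 504 bases of it. Over the members with a promoter, 174 of 210 start sites lay within 1 kb of the counted end. Of the 210 members with a promoter in the RefSeq table, 69.5% held GGGCGG and 52.9% held CCAAT, against 45% and 34.6% of all 35116 promoters of the same length. In the 195 promoters of ZNF genes on other chromosomes these shares were 60% and 44.1%, so these lay between the members and all promoters. TATAAA was found in 4 member promoters (1.9%, against 4.62% in ZNF genes of other chromosomes and 11.5% of all). The sites TTTGGCGC (4.29% against 0.652%) and TTTCCCGC (1.43% against 1.63%) were rare among members. In ZNF genes of other chromosomes they were in 1.03% and 3.59%. The number of CG dinucleotides had a median of 20 in members, 24 in ZNF genes of other chromosomes and 14 in all promoters. The matches are a description of the letters and no test was made.

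The libraries held 5729294 to 5972396 counts in the transient system, except for the second doxorubicin library with 24713822, and 18300628 to 23724398 counts in the inducible system. ZMYND8, read first as a check of the labels, was at 209 and 208 CPM (counts scaled to a common library size after TMM normalisation) in untreated GFP cells and at 922 and 927 CPM in untreated ZMYND8 cells, a log2 difference of 2.15 (adjusted p = 1.2e-23). In the transient system it was at 160 and 125 CPM in the libraries labelled ZMYND8 and at 182 and 123 CPM in the doxorubicin libraries, so these libraries held no more of its mRNA than those with doxorubicin alone. The second library labelled ZMYND8 and the second doxorubicin library gave a chi-square of 1.39 for each degree of freedom over all genes and of 1.18 over the members, whereas the 2 doxorubicin libraries gave 17.8 and 5.9. The cell line's expected genes were abundant (VIM at 1922 to 4494 CPM), ESR1 and PGR stayed under 0.8 CPM, and GATA3 (8.86 to 20.4 CPM) and CDH1 (0.58 to 21.7 CPM) were low but present. Antisense genes lying within the exons of an abundant sense gene had a median of 0.098 of its count density in the inducible and 1.68 in the transient table, so the transient counts do not separate the strands, and the 76 members whose exons overlap a gene of the opposite strand cannot be told from that gene there.

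Summed over all 241 members, the level was 2570 and 2540 CPM in untreated GFP cells and rose to 3206 and 3234 CPM after 48 h of doxorubicin. It was 3469 and 3474 CPM in untreated ZMYND8 cells and 4602 and 4536 CPM after 48 h. The ranges of the conditions did not overlap, and the ratio of the means was 1.26 for doxorubicin in GFP cells, 1.32 for doxorubicin in ZMYND8 cells and 1.36 for ZMYND8 against GFP without the drug. ZNF genes on other chromosomes had ratios of 1.02, 1.1 and 1.12 for the same comparisons. After 6 h the sum was 2706 and 2706 CPM in GFP cells and 3644 and 3614 CPM in ZMYND8 cells. In the transient system the sum was 2825 and 2931 CPM in controls, 3180 and 3637 CPM with doxorubicin and 3232 and 3634 CPM in the libraries labelled ZMYND8 with doxorubicin, so both treated groups lay above the controls and overlapped each other. The share of mitochondrial counts also differed between the inducible conditions, at 0.893% and 0.947% in GFP cells, 1.66% and 1.7% after 48 h, 1.29% and 1.96% in ZMYND8 cells and 3.01% and 2.73% after 48 h, and its part in the result was not tested. In such bulk RNA, fewer cells that express a gene and less RNA per cell cannot be told apart.

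**Figure D1:**
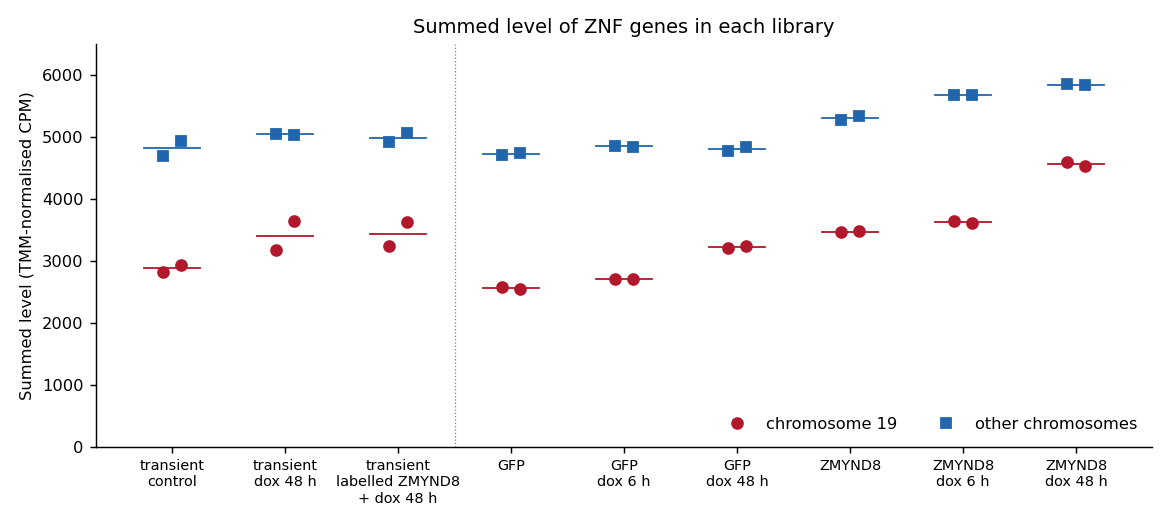
Summed TMM-normalised CPM of the ZNF genes on chromosome 19 (circles) and on other chromosomes (squares) in each of the 18 libraries, with the mean of each condition as a line; the dotted line separates the systems, which were normalised apart. The chromosome 19 sum runs from 2540 CPM in GFP cells to 4602 CPM in ZMYND8 cells after 48 h of doxorubicin.

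Most members were present at low levels. After edgeR's filter by expression, 220 members were tested in the inducible and 205 in the transient system, and the 21 left out of the inducible fit had at most 10 counts in any library. The median level per kb of exon over the 12 inducible libraries was 2.17 CPM per kb in the members tested, 2.73 in ZNF genes of other chromosomes and 2.96 in all 18801 genes tested. The highest were ZNF146 at 39.2, ZNF428 at 30.7, ZNF787 at 23, ZNF358 at 14.1 and ZNF317 at 13.4 CPM per kb. Of the members tested, 145 had their highest mean in ZMYND8 cells after 48 h of doxorubicin and 122 had both of those libraries above the other 10. The lowest mean was in untreated GFP cells for 99 members and in GFP cells after 6 h for 74. These orders were counted over the members only. The shares over all genes were not computed, so whether the orders are particular to the members cannot be told.

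After 48 h of doxorubicin, GFP cells had higher mRNA of a majority of the members. Of 220 tested, 126 rose (57.3%) and 19 fell (8.64%) at an adjusted p of at most 0.05, whereas 32.4% of all genes tested rose and 31.8% fell. The median log2 fold change was 0.38 in members, 0.08 in ZNF genes of other chromosomes (83 of 213 rose and 56 fell), 0.16 in the other genes of chromosome 19 and 0.03 in all genes. Restricting the count to the 96 tested members that share no exon base with another gene gave 61 rises and 8 falls. Scaling to total counts shifted the median of all genes by 0.25 on the log2 scale and gave 158 rises and 11 falls, with a members' median of 0.62.

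ZNF442 (chr19:12345944-12365905, minus strand) had 1.32 and 0.949 CPM in untreated GFP cells, 2.26 and 2.25 CPM after 6 h and 7.68 and 6.18 CPM after 48 h. In ZMYND8 cells it had 1.79 and 1.84 CPM, 2.76 and 4.15 CPM after 6 h and 8.13 and 8.89 CPM after 48 h. The treated libraries lay above the untreated ones at both times in both lines, and the log2 change at 48 h was 2.60 ± 0.24 (SE, adjusted p = 2.4e-10) in GFP and 2.23 ± 0.21 (adjusted p = 6.6e-10) in ZMYND8 cells. ZNF878 (chr19:12043805-12052939, minus strand) went from 0.355 and 0.475 CPM to 4.08 and 3.7 CPM at 48 h in GFP cells, a log2 change of 3.21 ± 0.33 (adjusted p = 2.6e-09). In ZMYND8 cells ZNF878 went from 0.558 and 0.744 CPM to 2.15 and 2.68 CPM. Of the exon bases of ZNF878, 329 are shared with another gene of the same strand. Both genes lie in the cluster at 11.5 to 12.6 Mb described below.

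ZNF473 (chr19:50025714-50053414, plus strand) encodes a partner of the U7 snRNP, the particle that processes the 3′ ends of replication-dependent histone mRNAs. Of its exon bases, 468 overlap a gene of the opposite strand. It had 13.3 and 13.1 CPM in untreated GFP cells, 38.2 and 39.1 CPM after 48 h, 40 and 41 CPM in untreated ZMYND8 cells and 69.9 and 71.6 CPM after 48 h. The log2 change with doxorubicin was 1.55 ± 0.08 in GFP cells (adjusted p = 5.7e-16), and untreated ZMYND8 cells lay slightly above treated GFP cells. Among the other leading rises in GFP cells, ZNF665 rose by a log2 change of 2.13, ZNF563 by 1.54 and ZNF296, a factor known from pluripotent cells, by 1.53. ZNF541, known from meiotic germ cells, had 0 counts in both untreated libraries of each line, 15 and 16 counts after 48 h in GFP and 9 and 13 in ZMYND8 cells, which is at least 4.31-fold and 3.08-fold higher against a floor of 3 counts per library. ZNF536, known from neurons and not tested, likewise went from 0 counts to 10 and 5 in GFP and 7 and 5 in ZMYND8 cells.

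Of the falls, ZNF792 (chr19:34956354-34964229, minus strand) went from 21.1 and 20.2 CPM in untreated GFP cells to 6.98 and 7.39 CPM after 6 h and 7.41 and 7.11 CPM after 48 h. The log2 change at 48 h was −1.51 ± 0.11 (adjusted p = 3.5e-12). ZNF581 (chr19:55635459-55645623, plus strand), of whose exons 407 bases overlap another gene of the same strand, went from 28.6 and 28.9 CPM to 10.7 and 11.8 CPM at 48 h, a log2 change of −1.35 ± 0.09 (adjusted p = 3.9e-13). In ZMYND8 cells both started lower, ZNF792 at 8.65 and 8.27 CPM and ZNF581 at 18.2 and 19.4 CPM, and ended at 6.02 and 5.79 CPM and at 14.7 and 15.8 CPM. ZNF599 (log2 change −1.14), ZNF112 (−1.03), ZNF575 (−0.98) and ZNF880 (−0.81) were the next largest falls in GFP cells.

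**Figure D2:**
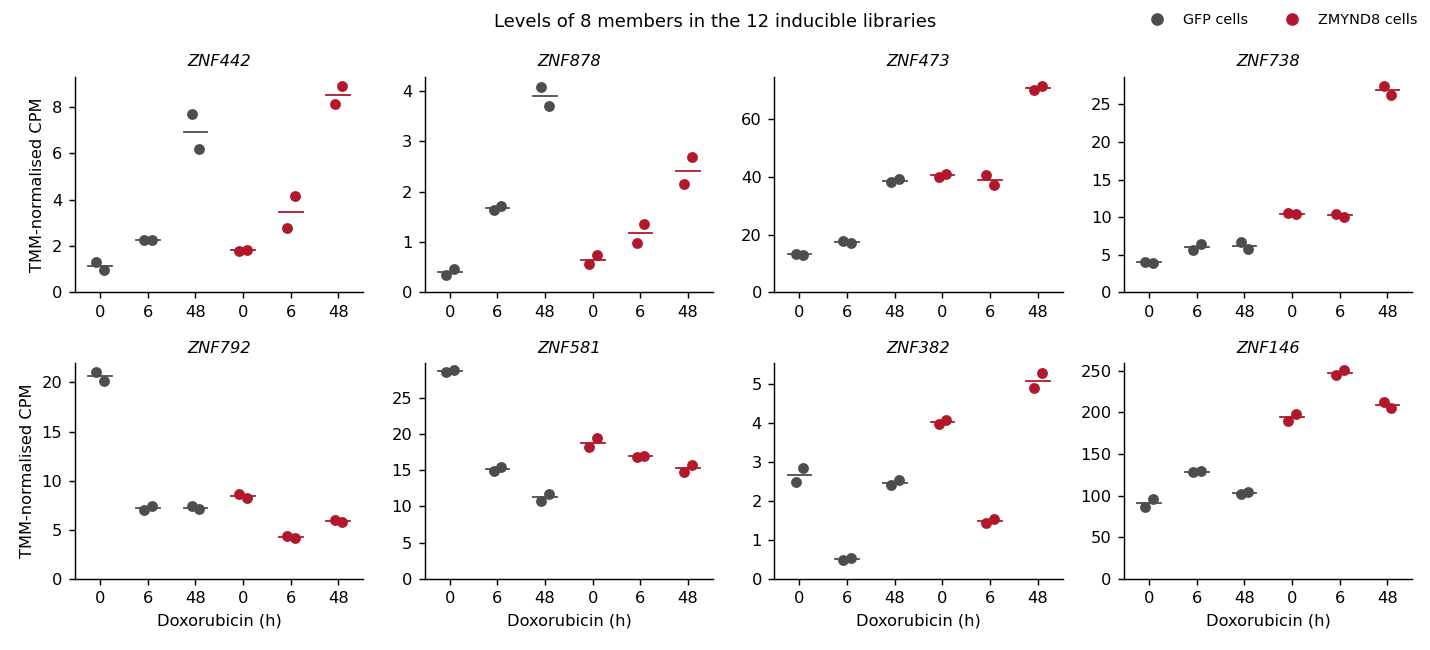
TMM-normalised CPM of 8 members in the 12 inducible libraries (points) with the mean of each pair (line), against hours of doxorubicin in GFP cells (grey) and ZMYND8 cells (red). ZNF473 rises in GFP cells from 13.3 and 13.1 CPM to 38.2 and 39.1 CPM, and ZNF792 falls from 21.1 and 20.2 CPM to 7.41 and 7.11 CPM.

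At 6 h the members did not move one way. In GFP cells 64 of 220 rose and 40 fell, against 22.1% of all genes that rose and 25.8% that fell, with a median log2 change of 0.03. In ZMYND8 cells 36 rose and 30 fell, against 21.8% and 19% of all genes, with a median of 0.00 (scaling to total counts gave 29 rises and 44 falls). ZNF382, a KRAB repressor often silenced in tumours, had 2.48 and 2.85 CPM in GFP cells, 0.472 and 0.535 CPM after 6 h and 2.4 and 2.52 CPM after 48 h. In ZMYND8 cells it had 3.97 and 4.07 CPM, 1.43 and 1.52 CPM after 6 h and 4.88 and 5.28 CPM after 48 h. It was therefore low at 6 h in both lines, with log2 changes of −2.39 ± 0.30 (adjusted p = 1.9e-07) and −1.44 ± 0.23 (adjusted p = 1.2e-05), while at 48 h its adjusted p was 0.68 and 0.14. ZNF415 and ZNF555 had the same order of levels in GFP cells, at 12.9 and 14.5 CPM, 6.51 and 6.32 CPM and 11.3 and 13.9 CPM for the first, and at 8.42 and 9.65 CPM, 4.62 and 3.75 CPM and 7.15 and 7.32 CPM for the second. ZNF681 was among the early rises, from 5.48 and 5.75 CPM to 12.1 and 10.5 CPM at 6 h in GFP cells.

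In ZMYND8 cells, 48 h of doxorubicin raised 138 of the 220 members and lowered 12, against 31.6% of all genes that rose and 30.8% that fell, with a median log2 change of 0.46. Scaling to total counts shifted the median of all genes by 0.21 and gave 164 rises and 3 falls. This comparison shares no library with that in GFP cells, and 109 members were called higher in both, which is 86.5% of those in GFP and 79% of those in ZMYND8 cells. Over all genes the corresponding shares were 70.2% and 72.1%. Members rose more often than all genes in each line (57.3% and 62.7% against 32.4% and 31.6%). Such rates alone raise the shared part, so the shares do not show that members agreed more closely than all genes. Of the ZNF genes on other chromosomes, 105 of 213 rose and 43 fell in ZMYND8 cells, with a median of 0.26. A total of 10 fell in both, and 1 member was called in opposite directions. ZNF844, in the same cluster as ZNF442, had 9.44 and 8.84 CPM untreated and 27.5 and 23.4 CPM at 48 h, a log2 change of 1.48 ± 0.11 (adjusted p = 3e-12). ZNF441 in that cluster had 8.15 and 8.67 CPM and then 22.2 and 22.6 CPM.

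ZMYND8 cells had more of most members than GFP cells even without doxorubicin. Of 220 members, 132 were higher and 10 lower, against 28.7% of all genes that were higher and 29.5% that were lower, and the median log2 difference was 0.48 (0.28 in ZNF genes of other chromosomes, 0.00 in all genes). After 48 h of doxorubicin in both lines, 142 were higher and 10 lower, against 28.4% and 31.6% of all genes, with a median of 0.49. At that time 132 of the 213 ZNF genes on other chromosomes were also higher and 26 lower, with a median of 0.38. The 2 comparisons use separate libraries, and 119 members were higher in both, 90.2% of those called without and 83.8% of those called with doxorubicin. Over all genes the shares were 69% and 69.8%. Members were higher more often than all genes in each comparison (60% and 64.5% against 28.7% and 28.4%). These rates alone raise the shared part, so closer agreement of the members cannot be read from it. Called members in opposite directions numbered 2.

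ZNF738 (chr19:21358930-21379302, plus strand), which shares no exon base with another gene, had 4.11 and 3.9 CPM in untreated GFP cells and 10.6 and 10.4 CPM in untreated ZMYND8 cells. After 48 h it had 6.7 and 5.76 CPM in GFP and 27.5 and 26.3 CPM in ZMYND8 cells, the highest level of the 6 conditions. The log2 difference between the lines was 1.39 ± 0.14 without (adjusted p = 1e-09) and 2.11 ± 0.11 with doxorubicin (adjusted p = 2.5e-15). ZNF146, a protein made almost only of fingers whose gene overlaps an opposite-strand gene over 446 exon bases, had 85.9 and 96.4 CPM in GFP and 190 and 198 CPM in ZMYND8 cells, a log2 difference of 1.09 ± 0.05 (adjusted p = 7.4e-17). ZNF600 had 7.76 and 6.91 CPM against 18.6 and 20.8 CPM. ZNF792 and ZNF358 were lower in ZMYND8 cells, ZNF358 at 47.6 and 50.3 CPM in GFP against 27.1 and 26.9 CPM, a log2 difference of −0.86 ± 0.07 (adjusted p = 1.1e-10).

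The interaction asks whether doxorubicin acted differently in the 2 lines. The untreated GFP libraries enter it, the 48 h change in GFP cells and the difference between the untreated lines. For a given member these values are therefore not separate evidence. It was positive for 21 members and negative for 18, against 12.7% and 15.8% of all genes, with a median of 0.06 on the log2 scale. ZNF473 had the clearest negative term (−0.75 ± 0.10, adjusted p = 1.2e-06), with a smaller rise in ZMYND8 cells. ZNF45 (−0.68 ± 0.11, adjusted p = 2.1e-05) rose from 15.8 and 17.2 CPM to 38.8 and 37.5 CPM in GFP cells and from 24.2 and 26.5 CPM to 37 and 36.6 CPM in ZMYND8 cells, so that both lines ended close together. ZNF581 (1.05 ± 0.13, adjusted p = 3.5e-07) and ZNF792 (0.99 ± 0.17, adjusted p = 4.8e-05) had the clearest positive terms, with smaller falls in ZMYND8 cells.

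Along the chromosome, members were split into clusters where the start of a member lay more than 1 Mb beyond that of the one before. This gave 9 clusters with 232 members and 9 isolated members. The longest unbroken series of tested members above 0 in GFP cells at 48 h ran over 23 members from ZNF627 to ZNF490, all but 2 members of the cluster at 11.5 to 12.6 Mb. That cluster held 25 members, all tested, of which 18 rose and 0 fell, with a median log2 change of 0.96. The other 12 genes tested between its ends had 6 rises, 0 falls and a median of 0.75. In ZMYND8 cells 17 of its 25 members rose and 0 fell, with a median of 0.61. There the other 12 genes had the higher median, 0.85, with 8 rises and 1 fall. With doxorubicin in the transient system the medians were 0.57 in 21 tested members and 0.89 in 13 other genes. Beside ZNF442, ZNF878, ZNF563, ZNF844 and ZNF441, the rises of the cluster in GFP cells included ZNF433 (1.51) and ZNF799 (1.38). The members of that cluster not called were ZNF653 (−0.07), ZNF791 (−0.02), ZNF627 (0.11), ZNF20 (0.39), ZNF763 (0.56), ZNF709 (0.91) and ZNF625 (1.02).

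The small cluster at 34.7 to 35 Mb, with 5 members, went the other way, with 1 rise, 2 falls (ZNF792 and ZNF599) and a median of −0.43. Its 4 other genes had a median of −0.81. In the remaining clusters the median in GFP cells at 48 h was 0.62 at 2.8 to 2.9 Mb (4 tested members, 3 rises), 0.25 at 7.1 to 9.8 Mb (13, 8 rises, 2 falls), 0.39 at 19.7 to 24.1 Mb (29, 21 rises, 1 fall) and 0.42 at 36.2 to 37.8 Mb (24, 15 rises, 0 falls). It was 0.28 at 43.5 to 45.1 Mb (22, 10 rises, 4 falls), 0.35 at 51.6 to 53.6 Mb (37, 22 rises, 3 falls) and 0.14 at 55.5 to 58.5 Mb (53, 22 rises, 6 falls). The members' median was above that of the other genes tested in the interval in 6 of the 9 clusters. The other genes had the higher median at 19.7 to 24.1 Mb (0.60), 43.5 to 45.1 Mb (0.41) and 55.5 to 58.5 Mb (0.18), and the lower one at 2.8 to 2.9 Mb (0.53, 1 gene), 7.1 to 9.8 Mb (−0.14), 36.2 to 37.8 Mb (0.29) and 51.6 to 53.6 Mb (0.29). The member with the largest called change was ZNF699 in the second cluster (1.47 ± 0.10), ZNF724 in the fourth (1.47 ± 0.26), ZNF793 in the sixth (1.85 ± 0.63) and ZNF582 in the ninth (1.43 ± 0.27). The value of ZNF724 was 0.90 without the first and 2.35 without the second untreated GFP library, which held 24 and 63 counts. ZNF793 had 3 and 4 counts untreated and 13 and 18 counts at 48 h, and its call was lost in 3 of 10 other settings. In the seventh and eighth it was a gene near the floor, ZNF233 with 1 and 0 counts untreated and 8 and 13 counts at 48 h (ratio 17.5, counting interval 2.82 to 725) and ZNF578 with 2 and 0 counts and then 15 and 14 (ratio 12.1, counting interval 3.06 to 105).

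Between ZMYND8 and GFP cells without doxorubicin, the highest cluster median was 0.65 at 51.6 to 53.6 Mb, where 28 of 37 members were higher and 1 was lower, and where 26 successive tested members from ZNF649 to ZNF160 lay above 0. The other 23 genes of that interval had a median of 0.08. The members' median was the higher in 8 of 9 clusters, by little at 55.5 to 58.5 Mb (0.38 against 0.34) and 36.2 to 37.8 Mb (0.53 against 0.42), and the exception was at 2.8 to 2.9 Mb (0.13 against 1.23 for 1 other gene). After 48 h of doxorubicin in both lines it was the higher in 6 of 9. The other genes then had the higher median at 2.8 to 2.9 Mb (0.82 against 0.33), 36.2 to 37.8 Mb (0.79 against 0.62) and 55.5 to 58.5 Mb (0.53 against 0.48). Without doxorubicin, the median of the cluster at 11.5 to 12.6 Mb was 0.56, with 10 higher and 0 lower. At 6 h in GFP cells the cluster at 19.7 to 24.1 Mb had the highest share of rises of the 9 clusters, 15 of 29 with 1 fall and a median of 0.43, although the members as a whole had a median of 0.03. Of the 21 other genes in that interval, 5 rose and 1 fell, with a median of 0.04. At 6 h in ZMYND8 cells only 6 of the 29 members of that cluster rose and 1 fell, with a median of 0.17. Of all genes, 21.8% rose and 19% fell there.

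**Figure D3:**
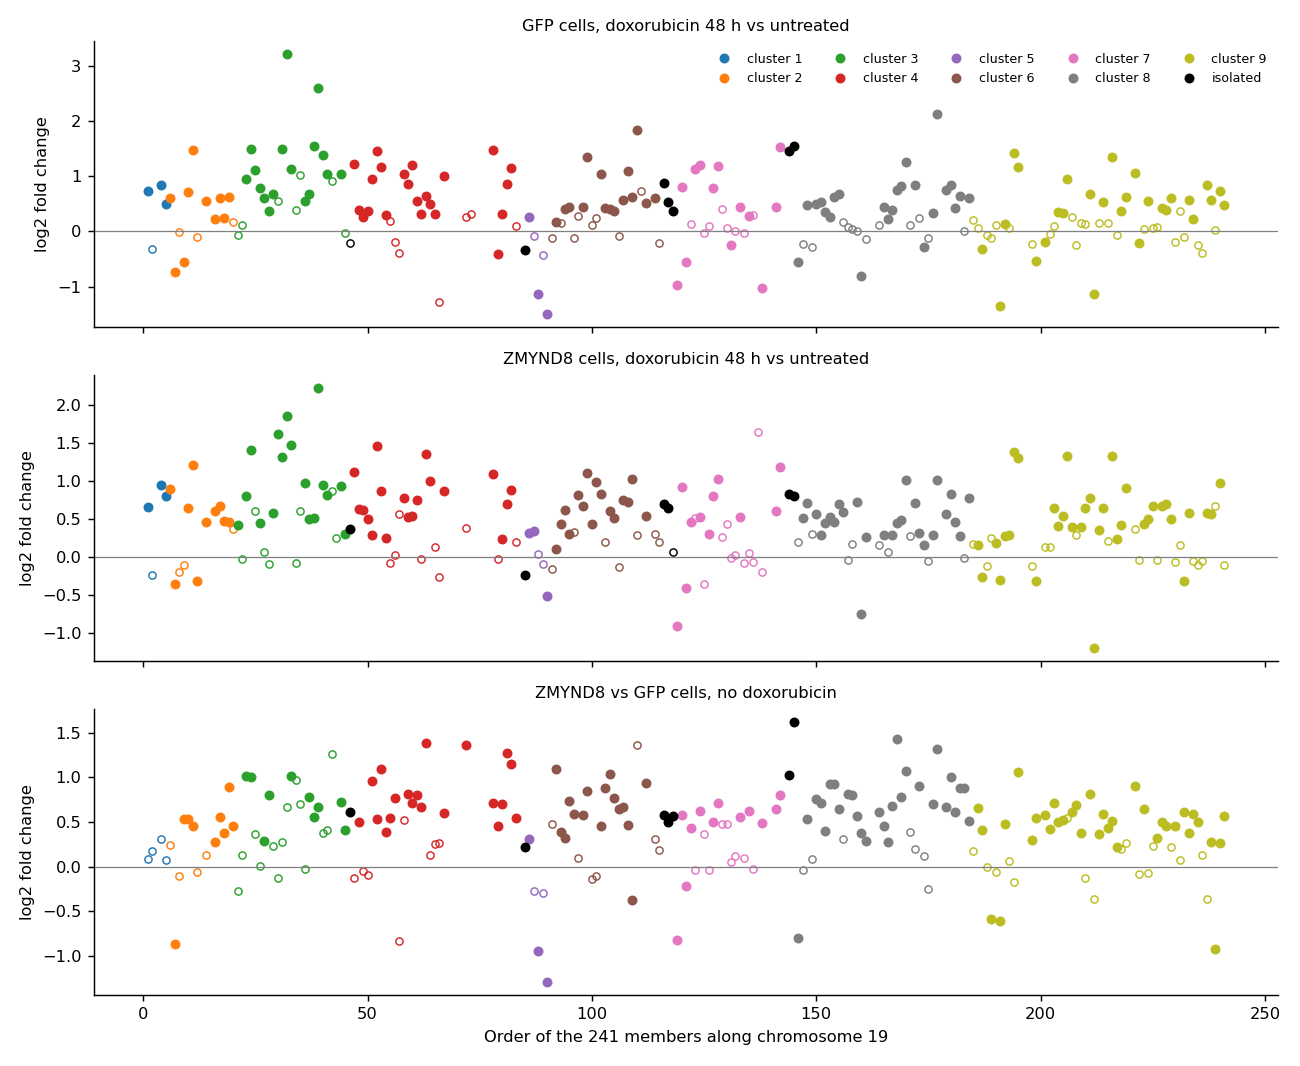
Fitted log2 fold change of each tested member against its order along chromosome 19, coloured by cluster, for 48 h of doxorubicin in GFP cells, the same in ZMYND8 cells, and ZMYND8 against GFP without doxorubicin; filled points passed an adjusted p of 0.05, and members with a group at or below 3 counts per library (4, 4 and 6) are not drawn. Filled points lie mostly above 0 in all panels, and the third cluster holds the 2 highest points of the first panel.

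**Figure D4:**
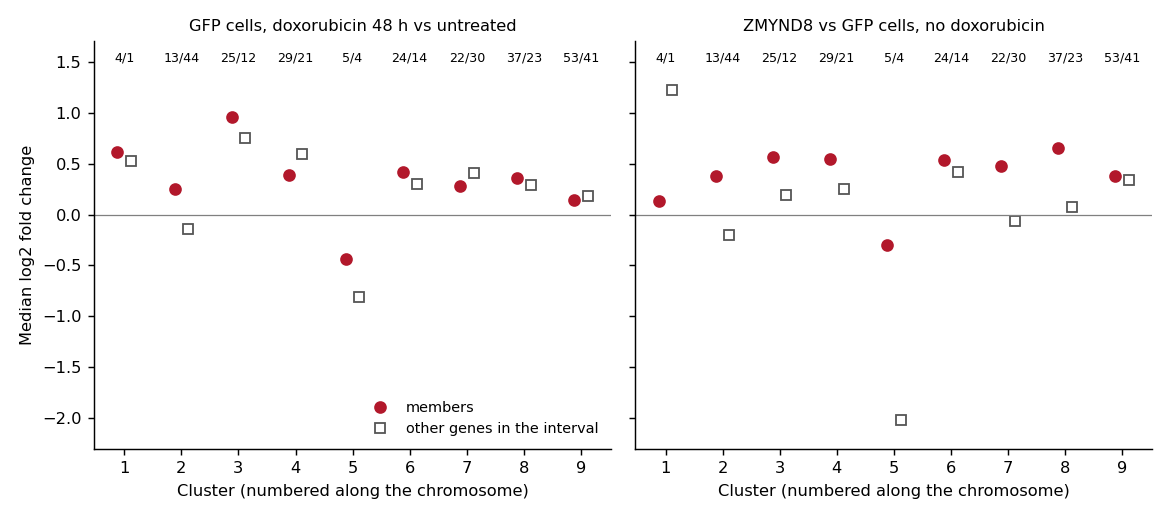
Median log2 fold change of the tested members (circles) and of the other genes tested in the same interval (squares) in each of the 9 clusters, with the numbers of members and other genes written above. The fifth cluster has negative medians in both panels, and the third has the highest members' median (0.96) at 48 h.

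Properties that did not enter the choice of the members were related to the changes only loosely. Spearman's rho across the tested members between the 48 h change in GFP cells and the mean level per kb was −0.06 (n = 220), that with exon length was −0.07 and that with the number of CG in the promoter was −0.18 (n = 195). For the difference between ZMYND8 and GFP cells without doxorubicin, rho was 0.28 with the span of the gene and 0.19 with exon length. All of these genes share the same libraries, so these are descriptions. In the third of members with the longest span, 52 of 74 were higher in ZMYND8 cells and 0 were lower, and in the third with the shortest span 37 of 73 were higher and 8 lower. Plus-strand and minus-strand members had medians of 0.35 and 0.42 at 48 h in GFP cells.

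A list of 13 members with a described role was followed separately. Of the 12 tested in the inducible system, 9 rose and 2 fell at 48 h in GFP cells, and 8 rose and 0 fell in ZMYND8 cells. Without doxorubicin, 10 were higher and 0 lower in ZMYND8 than in GFP cells. Of all members tested, 57.3% rose and 8.64% fell in the first comparison, 62.7% and 5.45% in the second. In the third, 60% of them were higher and 4.55% lower. Over all genes the shares were 32.4% and 31.8%, 31.6% and 30.8%, and 28.7% and 29.5%. ZNF274, which directs SETDB1 to zinc finger gene bodies, had 42.5 and 43 CPM in GFP cells and 65.8 and 61.2 CPM after 48 h, a log2 change of 0.57 ± 0.06 (adjusted p = 6.6e-10). ZNF350, a BRCA1-binding repressor, rose by 0.51 and ZNF420, a regulator of p53, by 0.40. The imprinted ZNF331 rose by 0.61, ZNF649 by 0.49, ZNF568 by 0.43, ZNF675 by 0.31 and ZNF146 by 0.18. ZNF91, which represses SVA retrotransposons, had 24.3 and 22.2 CPM in GFP cells and 17.6 and 17.5 CPM at 48 h, so it fell (−0.40 ± 0.08, adjusted p = 0.00013), and it was at 32.4 and 31.3 CPM in ZMYND8 cells and 31.2 and 31.1 CPM after 48 h. ZNF224 fell in GFP cells by a log2 change of −0.25 (adjusted p = 0.026), a call that was lost in 6 of 11 other settings. The calls of ZNF568 (lost in 3 of 11), ZNF675 and ZNF420 (2 each), and ZNF649, ZNF146 and ZNF91 (1 each) were also lost in some.

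The partners of KRAB proteins did not move one way with them. Of 23 tested genes of the TRIM28 silencing machinery, 11 rose and 8 fell at 48 h in GFP cells (median 0.04), against 32.4% and 31.8% of all genes. In untreated ZMYND8 cells 11 were higher and 5 lower (median 0.12), against 28.7% and 29.5% of all genes. TRIM28 itself had 283 and 286 CPM in GFP cells, 425 and 405 CPM after 6 h and 380 and 351 CPM after 48 h, and 335 and 342 CPM in ZMYND8 cells. SETDB1 fell at 48 h in GFP cells (log2 change −0.29, adjusted p = 0.0029), as did ATRX (−1.38, adjusted p = 2e-17). UHRF1 (1.66, adjusted p = 1.2e-19) and DNMT1 (1.17, adjusted p = 1.7e-17), which maintain DNA methylation, rose. The interaction was negative for 10 of the 23 and positive for 2, against 15.8% and 12.7% of all genes.

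In the transient system the same direction was seen with fewer calls. With doxorubicin, 11 of 205 members rose (5.37%) and 1 fell (0.488%), against 2.98% and 2.15% of all genes, with a median log2 change of 0.34 (0.16 in ZNF genes of other chromosomes, 0.00 in all genes). Scaling to total counts shifted the median of all genes by 0.15 and gave 18 rises and 0 falls. With the replicate number as a block, 35 members rose and 1 fell. The shares of all genes under that fit were not computed, so these counts cannot be set against the shares above. The calls of the fit without the block rested on single libraries. Without the second doxorubicin library, which is the deeper one and nearly matches a library labelled ZMYND8, 0 members passed (30 had an unadjusted p of at most 0.05), without the first control library 1 passed and without the first doxorubicin library 6. ZNF530 had 4.58 and 5.22 CPM in controls and 15.8 and 18.7 CPM with doxorubicin, a log2 change of 1.82 ± 0.28 (adjusted p = 0.0083). ZNF442 had 0.572 and 0.696 CPM and then 2.43 and 4.77 CPM (2.55 ± 0.65, adjusted p = 0.048), and ZNF473 had 10.5 and 11.8 CPM and then 20.8 and 23.8 CPM (1.00, adjusted p = 0.039). ZNF558 was the only fall, from 20.4 and 21.6 CPM to 10.8 and 10.2 CPM (−1.01 ± 0.26, adjusted p = 0.048). Its exons share 214 bases with a gene of the opposite strand, from which it cannot be told in these libraries, and its call was lost in 7 of 11 other settings. The rises ZNF473, ZNF90 and ZNF93 also overlap an opposite-strand gene. The call of ZNF442 was lost in 4 of 10 other settings.

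Of the members called at 48 h in GFP cells, 139 were also tested in the transient system and 125 of these (89.9%) had the same sign there, against 81.8% of all genes so called and tested. Over all 205 members tested in both it was 164 (80%), against 74.5% of all genes, and 74.6% of the members lay above 0 in the transient comparison. The libraries of the 2 systems are separate. Of the 11 transient rises, 10 were also called as rises in GFP cells (90.9% of the first list and 7.94% of the second). The other, ZNF221, had 2.69 and 2.48 CPM in GFP cells and 2.71 and 2.35 CPM after 48 h. This overlap was not counted over all genes, and 57.3% of all 220 members tested in GFP cells rose there.

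**Figure D5:**
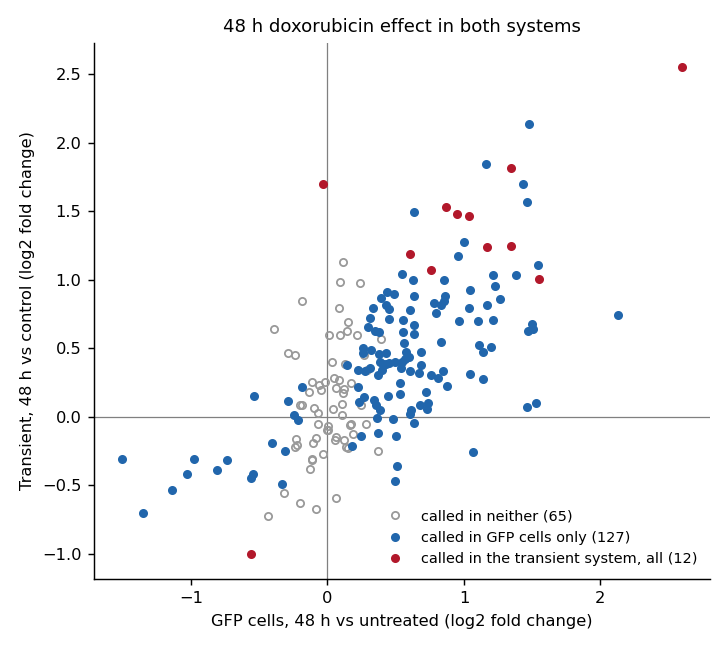
Fitted log2 fold change after 48 h of doxorubicin in the transient system against that in GFP cells, for 204 members tested in both; 1 member with a group at or below 3 counts per library is not drawn. Red points are the 12 members called in the transient system, blue points 127 called in GFP cells only and open points 65 called in neither, and most points lie in the upper right quadrant.

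The libraries labelled ZMYND8 with doxorubicin had 9 members higher (4.39%) and 1 lower (0.488%) than the controls, against 3.85% and 2.97% of all genes, so the share of rises was near that of all genes. Of the ZNF genes on other chromosomes, 10 of 205 (4.88%) were higher and 1 lower. The median log2 change was 0.31 in members and 0.13 in those genes. A fit that adds a replicate block gave 32 higher and 3 lower, and the shares of all genes under it were not computed. Scaling to total counts shifted the median of all genes by 0.13 and gave 16 rises and 0 falls. Without the second of these libraries 2 passed, without the first 1, without the first control library 3 and without the second 6. ZNF530 had 21.6 and 21.8 CPM, a log2 change of 2.14 ± 0.28 (adjusted p = 0.0045), and ZNF331 had 53.1 and 42.8 CPM against 20 and 20.4 CPM in controls (1.25 ± 0.22, adjusted p = 0.011). Both comparisons share the control libraries. Set directly against the doxorubicin libraries, 0 of 205 members were higher and 0 lower (0% and 0% of all genes) with edgeR and with DESeq2, 1 had an unadjusted p of at most 0.05, and the median log2 difference was −0.05. The second libraries of these groups nearly match (chi-square of 1.39 for each degree of freedom over all genes). The libraries labelled ZMYND8 also held no more ZMYND8 mRNA. The lack of calls therefore cannot show whether ZMYND8 changes the members.

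Reads that map to several places were left out of the counts, so levels of members with near-identical copies are uncertain. The smallest two-sided p that an exact permutation test can reach with 2 libraries against 2 is 0.333, and the calls rest on the spread that edgeR pools over genes and conditions.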

How the data were processed

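Poly(A) RNA-seq counts of 18 libraries in 9 conditions were analysed. The authors deposited unnormalised counts per gene, made from read pairs with featureCounts 1.6.4 on GENCODE release 31 (hg38), per the file headers, with reverse-strand counting over exons. The aligner is TopHat in the study's methods and HISAT2 in the submitters' processing notes. Symbols were paired by gene ID (60306 of 60603). Counts of each system were filtered by expression, scaled by TMM and analysed by the quasi-likelihood test of edgeR 4.0.16 (R 4.3.3), with 1 mean for each condition, and p-values were adjusted (Benjamini-Hochberg) over all genes tested. Errors in log2 changes are |change| divided by the square root of F. DESeq2 1.42.0 and other scalings, filters and sample choices were tried. The fit was tested on simulated data.

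Named members were, per comparison, up to 6 called rises and 6 falls with average log2 CPM of at least 0 and no overlap between libraries, the 5 highest per kb, a list with known roles and the leading called member of each cluster. Others named in the third cluster were taken as the whole list of its uncalled members, with ZNF433 and ZNF799 added after their values were seen. Members and lists were chosen with earlier results of these data known. Protein features were not analysed here. Replicate numbers correlated across conditions at 0.208 to 0.404 (transient) and −0.046 to 0.022 (inducible), and no source says that they mark a shared batch. Intervals of count ratios are exact 95% intervals and cover counting error only.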

Additional observations from a re-analysis of the deposited data

Results flagged for a closer look

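The 48 h effect of doxorubicin differed between ZMYND8 and GFP cells, by the interaction term of the edgeR fit across all genes, for each of the named members below (effect in ZMYND8 cells minus effect in GFP cells, log2 scale). It was lower in ZMYND8 cells for ZNF878 (−1.35, adjusted p = 0.042), ZNF665 (−1.11, adjusted p = 0.0066), ZNF563 (−1.03, adjusted p = 0.0013), ZNF473 (−0.75, adjusted p = 1.2e-06), ZNF671 (−0.70, adjusted p = 0.036) and ZNF45 (−0.68, adjusted p = 2.1e-05). It was higher for ZNF345 (0.74, adjusted p = 0.047), ZNF175 (0.75, adjusted p = 0.00014), ZNF112 (0.83, adjusted p = 0.014), ZNF792 (0.99, adjusted p = 4.8e-05), ZNF581 (1.05, adjusted p = 3.5e-07) and ZNF599 (1.19, adjusted p = 0.042). In untreated cells ZNF175 had 25.7 and 24.8 CPM in GFP and 15.1 and 14.2 CPM in ZMYND8 cells, and at 48 h 17.2 and 17.3 CPM and 16.8 and 16.8 CPM. The untreated GFP libraries also enter the 48 h change in GFP cells and the difference between the untreated lines, so the interaction is not separate evidence. The calls of ZNF345, ZNF671, ZNF878, ZNF599 and ZNF112 were lost in 12 of 15, 10 of 15, 8 of 14, 7 of 15 and 4 of 15 other settings, with no reversal, and the other 7 kept theirs in all 15.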

How the results depend on the processing

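Most counts of called members kept their direction and stayed within 1.5 times under the other settings (95 alternative counts did, 29 did not). These 95 include alternatives of the direct comparison between the treated transient groups, where 0 calls stayed 0. Alternatives were also made to 131 values of single members, medians and the number of members in clusters. Of these alternatives, 1214 were taken as unchanged, meaning the same call for a member and a shift within the replicate spread for a median. A change of sign with no call in either setting was taken as unchanged, as for ZNF382 at 48 h in GFP cells (−0.223 to 0.131). Another 164 lost the call, 15 medians moved by more than the replicate spread and 0 called values reversed. The study's criterion, an unadjusted p of at most 0.05 with a log2 change of at least 1 (transient) or 1.5 (inducible), gave 24 calls for transient doxorubicin and 26 for the libraries labelled ZMYND8, and 5 at 6 h (1 rise and 4 falls, the reverse balance) and 13 at 48 h in GFP cells, 2 and 6 in ZMYND8 cells, 2 for ZMYND8 against GFP without and 1 with doxorubicin, and 2 for the interaction. Total-count scaling gave 73 at 6 h in ZMYND8 cells (29 rises, 44 falls) and 38 for the interaction (17 and 21), both with the balance turned, and 16 for the transient libraries labelled ZMYND8. With no filter the transient counts were 26 and 17, and with only the compared groups 7 and 6. DESeq2 called 15 for the interaction. The replicate block gave 36 and 35 in the transient comparisons with the control, 0 between the treated groups, and changed no other count by over 1.5 times. Leaving out 1 library gave 0 to 8 for transient doxorubicin, 1 to 6 for the libraries labelled ZMYND8, 0 to 0 between the treated groups, 83 to 97 and 122 to 126 in GFP cells (6 and 48 h), 53 to 62 and 125 to 131 in ZMYND8 cells, 124 to 133 and 134 to 142 between the lines and 25 to 32 for the interaction. Without the first 6 h library of ZMYND8 cells the balance at 6 h was 26 rises and 27 falls (53), and without the first untreated one the interaction was 14 and 15 (29). The cause of these shifts was not tested. All counts under these other settings, the study's criterion included, were made over the members only. Their shares over all genes were not computed. Cluster gaps of 0.5 and 2 Mb put 229 and 237 members in clusters, against 232. In the transient libraries the depth of 5729294 to 5972396 counts in 5 of 6 limits what can be called of members with few counts.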
